A study of Mus musculus with 19 samples.

Results

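Of the 35 genes described here, 34 encode proteins of ribosome production, most of which act in the nucleolus, and 1, Pprc1, encodes a transcriptional coactivator. They were taken by symbol from an expression table of 21086 genes and followed in RNA from 19 mouse lymphomas, by genotype, by age at tumour onset and against the level of Myc. All 35 passed the filter on low values, which kept genes with at least 1 normalised read in at least 4 tumours. In the nucleolus, RNA polymerase I transcribes the ribosomal DNA. Small nucleolar RNA-protein particles (snoRNPs) then guide the modification and cutting of the precursor RNA, and assembly factors fold it with ribosomal proteins into the small and the large subunit. MYC is known to raise the transcription of many genes of this pathway, and enlarged nucleoli are a known feature of cells with high MYC.

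All mice carried the Eμ-Myc transgene, a Myc gene under the heavy chain enhancer of the immunoglobulin locus, which is active in the B lineage. The labels spell the genotypes Bptf+/+; Em-Myc and the same transgene with 1 deleted Bptf allele (Bptf+/Δ), and BPTF is the largest subunit of the chromatin remodelling complex NURF. Which exons the deleted allele lacks is not given in the sources used here, and each tumour was classed as of early or late onset. There were 6 early wild-type tumours (WT_early, onset at 9 to 17 weeks), 5 late wild-type tumours (WT_late, 28 to 76 weeks), 4 early heterozygous tumours (HET_early, 8 to 13 weeks) and 4 late heterozygous tumours (HET_late, 30 to 66 weeks). Onset and the age of the mouse cannot be told apart in this design, and normal B cells and tumours without the transgene were not analysed here. The transgene encodes Myc itself, so reads of the transgene and of the mouse's own gene cannot be told apart. Each library was 1 tumour, and the numbers in library names only name them.

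Libraries held 8297856 to 12497732 reads. Bptf ran from 1665 to 2586 normalised reads in the 11 wild-type tumours and from 408 to 1573 in the 8 heterozygous tumours, with no overlap. The library labelled HET_early_2 stood apart. Its summed level of 15 pan-B cell markers was 1256 normalised reads against 19931 to 51025 in the other 18 libraries, and its sum of 15 stromal markers was 1187700 against 5780 to 36466. None of the 15 pan-B markers was at 0 in it. Its 13 cartilage and muscle markers summed to 1134500 against 88.8 to 13033 elsewhere, and its 30 proliferation genes to 12834 against 40996 to 93420. It also had the lowest Myc. Macrophage markers (15 genes) were high in more tumours than this one. The 4 tumours lowest in Myc were HET_early_2, WT_late_2, HET_late_4 and HET_late_2, and their macrophage sums were 27117, 13547, 26056 and 28660 normalised reads. In the other 15 tumours these sums ran from 4489 to 13940, so only WT_late_2 of the 4 lay within that range, and 0 to 2 of the 15 markers were at 0 in any tumour. The proliferation sum of HET_late_4 (40996) was the lowest apart from that of HET_early_2. In WT_early_6 and HET_late_4, as in HET_early_2, the most abundant transcript was not Eef1a1, the leading one in the other 16 libraries. Results are therefore given with and without HET_early_2, and where it matters without all 3 libraries. In bulk tumour RNA, fewer cells of a type and less RNA per cell cannot be told apart.

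HET_early_2 held the lowest value of 33 of the 35 genes, at a median of 29.3% of each gene's median over the 19 tumours (range 12.9% to 93.5%). The exceptions were Rrp12, lowest in HET_late_4, and Pprc1, lowest in HET_late_2. WT_late_2, the tumour with the second lowest Myc, was the second lowest for 20 of the 35. The highest value of a gene fell in WT_early_2 for 14 genes, in HET_late_2 for 7, in WT_early_3 for 6, in WT_late_5 for 5 and in WT_late_4 for 3. Per kilobase of exon, mean levels over the 19 tumours ran from 9181 normalised reads for Npm1 and 2092 for Ncl down to 16.3 for Wdr74. The next lowest after Wdr74 were Wdr12 at 107 and Polr1a at 135 normalised reads per kilobase. Their rank depends on the exon lengths used, 11955 bases for Wdr12 and 11871 for Polr1a. Before division by length their means were 1278 and 1604 normalised reads, above the 680 of Rrp12. The standard deviation of a gene over the tumours had a median of 0.56 on the log2 scale, and of 0.33 without HET_early_2.

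**Figure D1:**
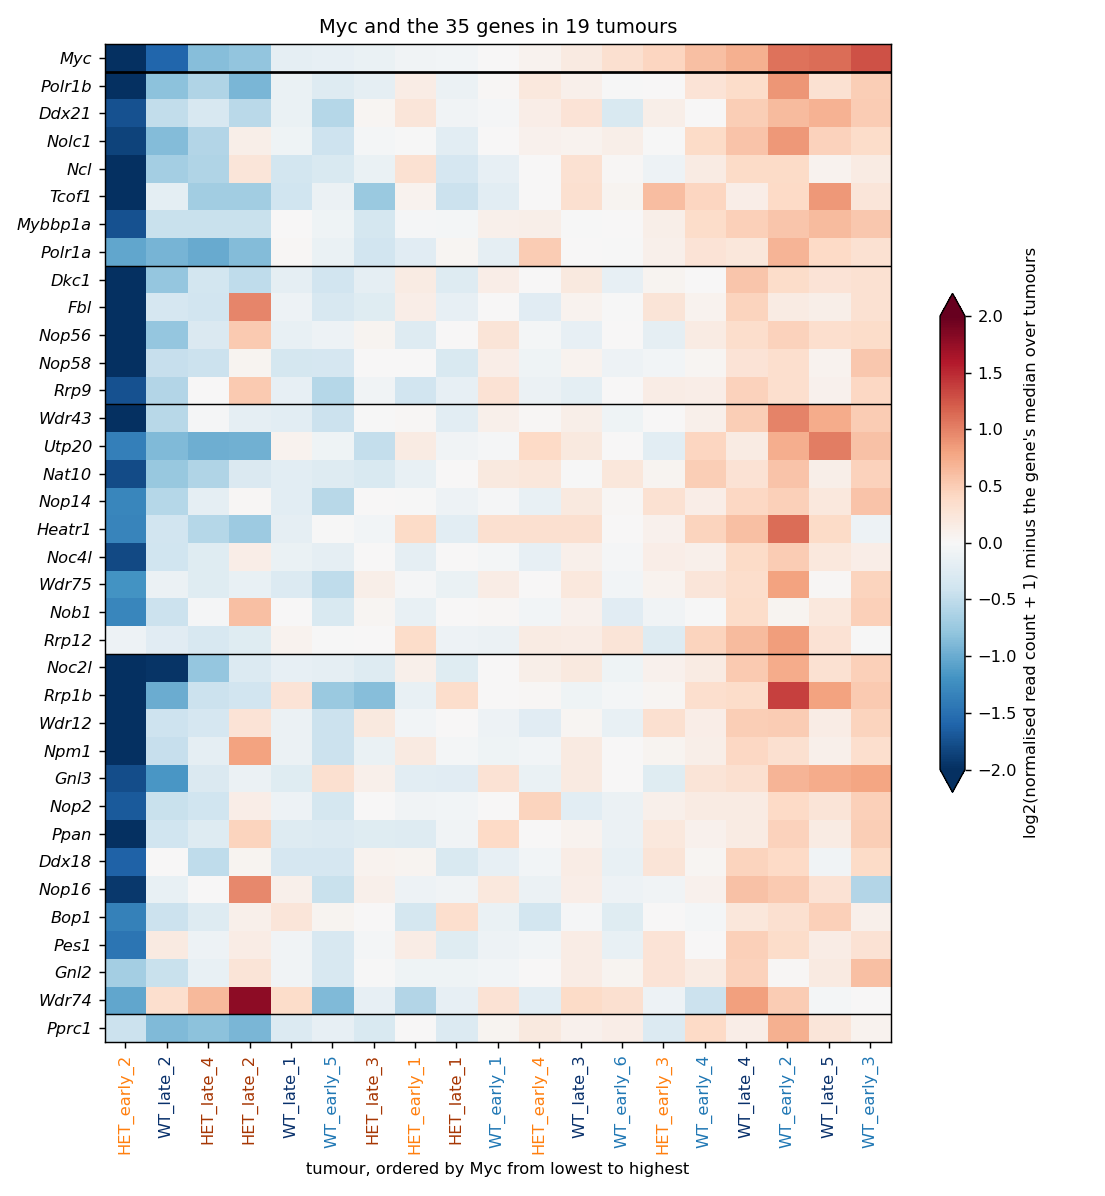
Level of Myc and of each of the 35 genes (rows, grouped by role) in each of the 19 tumours (columns, ordered by Myc from lowest to highest), as log2(normalised read count + 1) minus the gene's median over tumours. HET_early_2, at the left, is the lowest tumour for 33 of the 35 genes, and the columns turn from blue to red toward the tumours with the most Myc.

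The 35 genes moved together over the tumours. The median Pearson correlation over the 595 pairs of them was 0.81, and 591 pairs were positive, beside a median of 0.01 over all pairs of genes tested. Without HET_early_2 the median was 0.62, with 576 pairs positive, beside 0.0 over all pairs. These correlations describe values that share each library's scaling factor. Over all 19 tumours, Wdr74, Rrp12 and Pprc1 were the least like the others, with mean correlations of 0.34, 0.44 and 0.49 with the other members. Nolc1 was the most like them (0.85). These means include HET_early_2, where Rrp12 was at 93.5% and Pprc1 at 73.9% of its median, and were not taken without it.

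Within the 4 groups 33 of the 35 genes rose with Myc. Of all 19926 genes tested 8.63% rose with Myc at the same threshold (limma, adjusted p under 0.05), and of the 3378 genes at least as abundant as the second lowest member (a mean of 680 normalised reads) 28.7% did. The median slope of the 35 was 0.52 log2 units per log2 unit of Myc, against -0.05 over all genes. Myc ran from 6099 to 16555 normalised reads in WT_early (median 9443) and stood at 6006, 2271, 7761, 11158 and 14847 in WT_late. It was at 6488, 1232, 9190 and 7147 in HET_early and at 6567, 3951, 6223 and 3790 in HET_late. The lowest values of both genotypes lay below those of every WT_early tumour, and the groups overlapped. In 3 of the 4 tumours lowest in Myc the macrophage sum, given above, was higher than in all the others.

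Without HET_early_2, 14 of the 35 genes rose with Myc and the median slope was 0.33, beside 0.959% of all genes and 3.91% of the abundant ones. The 14 were Noc2l, Gnl3, Ddx21, Mybbp1a, Utp20, Polr1b, Polr1a, Nolc1, Dkc1, Nat10, Wdr43, Nop14, Rrp1b and Pprc1. Without the 3 libraries led by another transcript, 9 genes did (median slope 0.32, beside 0.206% of all genes). In the 11 wild-type tumours alone, where HET_early_2 plays no part, 8 did (Ddx21, Gnl3, Mybbp1a, Noc2l, Nolc1, Polr1a, Polr1b and Utp20), with a median slope of 0.35 and all 35 slopes above 0, beside 0.161% of all genes and 0.71% of the abundant ones. Adding the mean z score of T cell, macrophage, stromal and endothelial markers to the fit left 2 genes called, Noc2l and Utp20, with a median slope of 0.43, beside 0.0301% of all genes. This score was 1.60 in HET_early_2 and between -0.88 and 0.51 in the other libraries, and the fit with it was not run without HET_early_2. The part of macrophage content alone was not tested. EdgeR on recovered reads called 32 (beside 7.12% of all genes), array weights 23 (1.78%) and total count scaling 34 (14.3%).

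**Figure D2:**
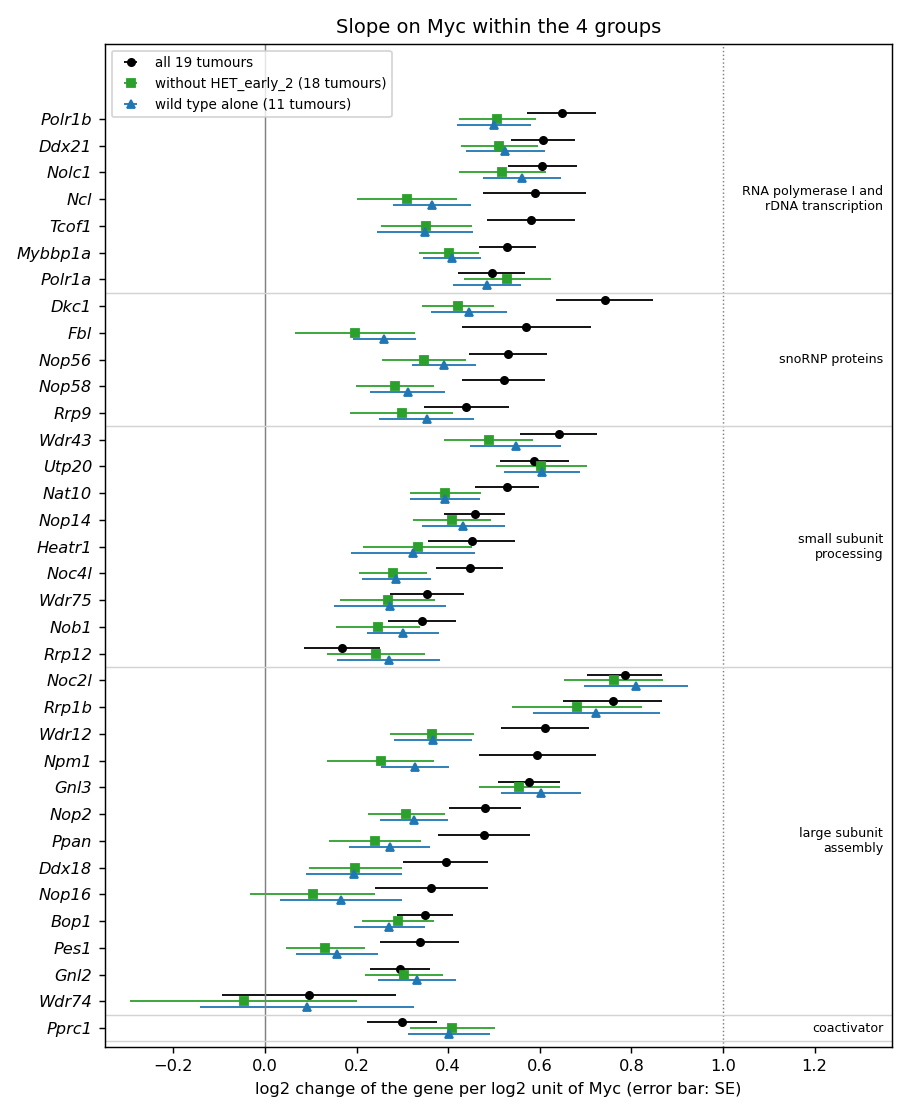
Slope of each of the 35 genes on Myc within the 4 groups, in log2 units per log2 unit of Myc with its standard error, for all 19 tumours (black circles), for 18 tumours without HET_early_2 (green squares) and for the 11 wild-type tumours alone (blue triangles). The steepest slope over all tumours is that of Noc2l (0.79) and the flattest that of Wdr74 (0.10).

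The heterozygous tumours alone gave a slope that rested on HET_early_2. Over the 8 of them 29 genes rose with Myc (median slope 0.64, beside 6.18% of all genes). Without HET_early_2, in an alternative chosen after seeing the data, none of the 35 and 0% of all genes were called by limma, 1 of the 35 had a positive slope at an unadjusted p under 0.05 (2.99% of all genes), and the median slope was 0.18, with 23 slopes above 0 and 12 below. Over the 7 tumours left Myc ran from 3790 to 9190 normalised reads, against 2271 to 16555 in the wild type. The slope of the 35 genes was steeper in heterozygotes for 29 of them with all tumours, and for 8 of them without HET_early_2. The same counts over all genes are not given here, so they cannot be read as particular to the 35. The difference in slope between genotypes passed the test for Dkc1 alone (0.60 ± 0.16, SE, adjusted p = 0.0387, beside 3.9% of all genes in either direction and 1.92% steeper in heterozygotes). Another 14 were steeper in heterozygotes at an unadjusted p under 0.05 (8.66% of all genes). For Dkc1 it was -0.25 ± 0.25 without HET_early_2 (adjusted p = 0.9).

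A correlation with Myc that uses no model gave 33 of the 35 genes by Pearson's r over the 19 tumours and 26 by Spearman's rho (permutation test, adjusted over all genes), beside 10.6% and 5.51% of all genes. The median r was 0.81 and the median rho 0.78. Without HET_early_2, 25 and 22 were called (5.1% and 2.7% of all genes), with a median r of 0.72. Leaving out HET_early_2 and WT_late_2, the tumours farthest from the median Myc, gave a median r of 0.69, with 19 genes called by r and 15 by rho, beside 4.19% and 0.938% of all genes. In the wild type the median r was 0.84 (8 genes called by r and none by rho, beside 0.236% and 0%), and it was 0.78 without the 2 wild-type tumours farthest in Myc (0 called, all 35 above 0). In the heterozygotes the median r was 0.89 (0 called, beside 0% of all genes), and it was 0.08 over the 6 tumours without the farthest pair, with 19 genes above 0 and 16 below.

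The 7 genes of RNA polymerase I and ribosomal DNA transcription all rose with Myc, with slopes from 0.49 to 0.65, and 5 of them rose without HET_early_2 as well. Of all genes 8.63% rose with all tumours and 0.959% without HET_early_2, and of the abundant ones 28.7% and 3.91%. Polr1a and Polr1b encode the largest and the second largest subunit of RNA polymerase I. Polr1b ran from 1156 to 2538 normalised reads in WT_early (median 1536) and stood at 1259.5, 782, 1484, 1785 and 1695 in WT_late. It was at 1531, 332, 1376 and 1599.6 in HET_early and at 1262, 732, 1218 and 911 in HET_late. The 4 tumours lowest in Polr1b were the 4 lowest in Myc, and WT_early_2 was the highest. The slope of Polr1b was 0.65 ± 0.07 (SE, adjusted p = 0.000212), 0.51 ± 0.08 without HET_early_2 (adjusted p = 0.0131) and 0.50 ± 0.08 in the wild type alone (adjusted p = 0.0413). Over the 19 tumours its r with Myc was 0.94 and its rho 0.92 (permutation p = 1e-05 for each, the smallest that 100000 resamples can give).

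Ncl encodes nucleolin, an abundant nucleolar RNA-binding protein. In WT_early Ncl lay between 18023 and 29144 normalised reads (median 23809), and in WT_late at 17377, 14012, 27508, 29004 and 23354. The HET_early tumours had 27470, 4175, 20878 and 22332, and the HET_late tumours 17631, 26337, 20293 and 14786. HET_early_2 was far below every other tumour, and HET_late_2, low in Myc, was among the higher ones. Its slope was 0.59 ± 0.11 (SE, adjusted p = 0.00297), and 0.31 ± 0.11 without HET_early_2 (adjusted p = 0.147). The other members of this role had slopes of 0.49 (Polr1a), 0.61 (Ddx21, a nucleolar RNA helicase), 0.61 (Nolc1, a chaperone of snoRNPs), 0.58 (Tcof1, treacle, a partner of RNA polymerase I) and 0.53 (Mybbp1a, a Myb-binding nucleolar protein).

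**Figure D3:**
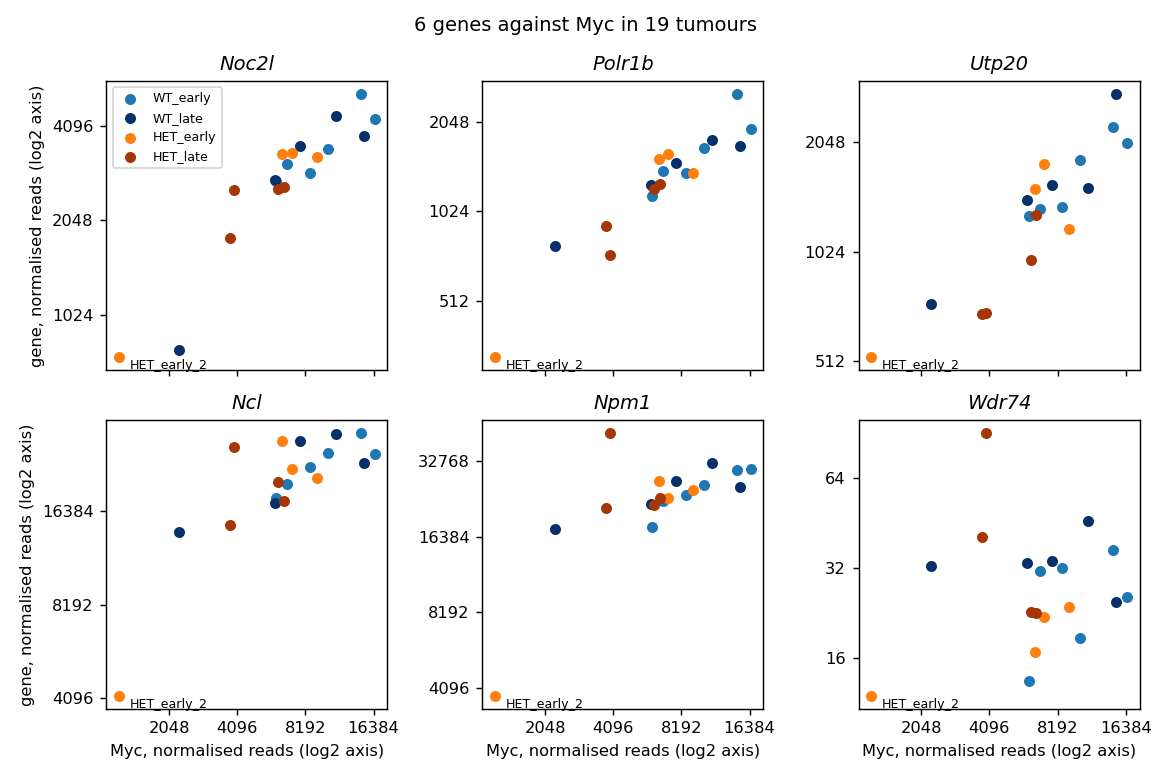
Normalised reads of 6 of the genes (vertical axes, log2 scale) against those of Myc (horizontal axes, log2 scale) in the 19 tumours, 1 point per tumour, coloured by group. Polr1b, Utp20 and Noc2l climb across the whole range of Myc, whereas for Ncl and Npm1 HET_early_2 lies far below and HET_late_2 high at low Myc, and the slope of Wdr74 (0.10) was not called.

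The 5 snoRNP protein genes all rose with Myc with all tumours, with slopes from 0.44 to 0.74, and 1 of them, Dkc1, rose without HET_early_2. The shares over all genes were 8.63% and 0.959%, and over the abundant ones 28.7% and 3.91%. Fbl encodes fibrillarin, the methyltransferase of box C/D snoRNPs. Fbl ran from 3967 to 6092 normalised reads in WT_early (median 5073) and stood at 4629.5, 3916, 5224, 6752 and 5396 in WT_late. It was at 5460.5, 758, 5918 and 4239 in HET_early and at 4443, 9799.6, 4168 and 3787 in HET_late. HET_late_2 was above and HET_early_2 below all others, which lay between 3787 and 6752. The slope of Fbl was 0.57 ± 0.14 (SE, adjusted p = 0.0106), and 0.20 ± 0.13 without HET_early_2 (adjusted p = 0.451). Dkc1 encodes dyskerin, the pseudouridine synthase of box H/ACA snoRNPs. The WT_early tumours held 2250.3 to 3803 normalised reads of Dkc1 (median 3075), and the WT_late tumours 2584, 1711, 3358, 4329 and 3559.9. Values of Dkc1 were 3309.5, 380.2, 3062 and 2949.9 in HET_early and 2455, 2057, 2597 and 2281 in HET_late. WT_late_2 and HET_late_2 were the next lowest after HET_early_2, and WT_late_4 was the highest. Its slope was 0.74 ± 0.11 (SE, adjusted p = 0.00058), and 0.42 ± 0.08 without HET_early_2 (adjusted p = 0.0202).

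Nop56 encodes a core protein of box C/D snoRNPs. Nop56 ran from 4178 to 6181 normalised reads in WT_early (median 5200.3) and stood at 4058, 2646, 4003, 5744 and 5678 in WT_late. It was at 3778, 1001, 3975 and 4393 in HET_early and at 4531, 6455, 4661 and 3690.2 in HET_late. HET_late_2 was the highest, and 3 of the 4 HET_early tumours lay below every WT_early tumour. The slope of Nop56 was 0.53 ± 0.09 (SE, adjusted p = 0.00117), and 0.35 ± 0.09 without HET_early_2 (adjusted p = 0.067). Nop58, its partner in the same particle, had a slope of 0.52, and Rrp9, a protein specific to the snoRNP that guides the early cuts of the precursor, had 0.44.

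Several members hold within the span of their gene the RNAs that snoRNP proteins bind. By the GENCODE M21 annotation (GRCm38), 7 of the 35 genes (20%) held 21 snoRNA genes on their own strand, against 220 of 15016 protein-coding genes of the table (1.47%). The hosts were Ncl, Nop56, Nop58, Dkc1, Gnl3, Wdr43 and Ppan. Their slopes on Myc had a median of 0.58, against 0.47 for the 28 others. The snoRNAs themselves were not analysed here, and the libraries were made from polyadenylated RNA. The 5 sequences below are box C/D snoRNAs of 5 hosts, shown because fibrillarin, Nop56 and Nop58 are the proteins of such particles. Capitals mark the first TGATGA (box C) and the last CTGA (box D), found by a search for those letters.
Snord82 in Ncl, chr1:86356261-86356330, minus strand: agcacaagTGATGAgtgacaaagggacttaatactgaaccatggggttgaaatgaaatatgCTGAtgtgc
Snord110 in Nop56, chr2:130275506-130275573, plus strand: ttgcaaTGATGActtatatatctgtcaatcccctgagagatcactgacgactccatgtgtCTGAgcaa
Snord11 in Nop58, chr1:59704790-59704873, plus strand: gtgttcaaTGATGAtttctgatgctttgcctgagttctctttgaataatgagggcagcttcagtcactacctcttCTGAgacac
Snord69 in Gnl3, chr14:31014287-31014366, minus strand: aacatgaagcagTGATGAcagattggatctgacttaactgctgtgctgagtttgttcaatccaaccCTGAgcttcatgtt
Snord92 in Wdr43, chr17:71631281-71631365, plus strand: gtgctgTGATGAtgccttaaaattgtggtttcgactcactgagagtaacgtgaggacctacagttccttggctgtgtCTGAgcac
Only snoRNAs with a Snord name in which the search found both boxes near the ends could be shown, so the boxes are shared by selection. Those annotated under other names were not eligible, whatever boxes they hold. Snord57, Snord70, Snord19 and Snord53, in the same hosts, did not pass that search. The 5 shown run from 68 to 85 bases, and their sequences were not compared.

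Of the 9 genes of small subunit processing, 8 rose with Myc with all tumours (slopes from 0.17 to 0.64, the flattest being Rrp12) and 4 without HET_early_2 (Utp20, Nat10, Nop14 and Wdr43). Beside these counts stood 8.63% and 0.959% of all genes, and 28.7% and 3.91% of the abundant ones. Utp20 encodes a large scaffold protein of the small subunit processome. Normalised reads of Utp20 were 1284 to 2254 in WT_early (median 1591) and 1421, 737, 1557, 1528 and 2776 in WT_late. The level was 1521, 526, 1179 and 1781 in HET_early and 1288, 696, 972 and 688 in HET_late. The 4 lowest tumours were the 4 lowest in Myc, and the 3 highest were the 3 highest in Myc. The slope of Utp20 was 0.59 ± 0.07 (SE, adjusted p = 0.000303), 0.60 ± 0.10 without HET_early_2 (adjusted p = 0.0125) and 0.60 ± 0.08 in the wild type alone (adjusted p = 0.0409). Nob1 encodes the nuclease that makes the final cut of the small subunit RNA. Nob1 ran from 761 to 1309.9 normalised reads in WT_early (median 951) and stood at 953, 700.2, 1002, 1214 and 1093 in WT_late. It was at 855, 381, 899 and 908 in HET_early and at 943, 1434, 975 and 926 in HET_late. HET_late_2 was the highest and HET_early_2 the lowest. Its slope was 0.34 ± 0.07 (SE, adjusted p = 0.00567), and 0.25 ± 0.09 without HET_early_2 (adjusted p = 0.166).

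Rrp12, a factor of small subunit maturation and export, was the second flattest of the 35. In WT_early Rrp12 lay between 573 and 1114 normalised reads (median 681), and in WT_late at 649, 530, 686, 961 and 761. The HET_early tumours had 801, 581, 520.0 and 694, and the HET_late tumours 578, 526, 621 and 499.9. HET_early_2 was not the lowest here, and WT_early_2 was the highest. The slope of Rrp12 was 0.17 ± 0.08 (SE, adjusted p = 0.159), and 0.24 ± 0.11 without HET_early_2 (adjusted p = 0.243). The other members had slopes of 0.64 (Wdr43), 0.46 (Nop14), 0.45 (Heatr1), 0.45 (Noc4l) and 0.35 (Wdr75), all proteins of the small subunit processome, and 0.53 (Nat10, the cytidine acetyltransferase of the small subunit RNA).

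Of the 13 genes of large subunit assembly, 12 rose with Myc with all tumours and 3 without HET_early_2 (Noc2l, Gnl3 and Rrp1b). Again 8.63% and 0.959% of all genes did, and 28.7% and 3.91% of the abundant ones. Noc2l, which encodes a nucleolar complex protein homologue, had the steepest slope of the 35. Noc2l ran from 2725 to 5162 normalised reads in WT_early (median 3269.5) and stood at 2756, 791, 3522, 4411 and 3801 in WT_late. It was at 3322, 755, 3269.5 and 3348 in HET_early and at 2608, 2559, 2577 and 1801 in HET_late. HET_early_2 and WT_late_2 lay far below the rest, and WT_early_2, WT_late_4 and WT_early_3 were the highest. The slope of Noc2l was 0.79 ± 0.08 (SE, adjusted p = 0.000154), which is 1.72-fold per 2-fold change of Myc, 0.76 ± 0.11 without HET_early_2 (adjusted p = 0.00701) and 0.81 ± 0.11 in the wild type alone (adjusted p = 0.0409). Rrp1b, a nucleolar ribosomal RNA processing protein, was the second steepest. Normalised reads of Rrp1b were 862 to 3749 in WT_early (median 1639) and 1748, 732, 1364, 1862 and 2529 in WT_late. The level was 1311, 299, 1481 and 1477 in HET_early and 1855, 1109, 799 and 1074 in HET_late. WT_early_2 was well above all other tumours and HET_early_2 below. Its slope was 0.76 ± 0.11 (SE, adjusted p = 0.000586), and 0.68 ± 0.14 without HET_early_2 (adjusted p = 0.0312).

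Gnl3 encodes nucleostemin, a nucleolar GTPase. Gnl3 ran from 2700.1 to 4679.6 normalised reads in WT_early (median 3341) and stood at 2284, 1208, 3068, 3357 and 4526 in WT_late. It was at 2341, 792, 2280.1 and 2472 in HET_early and at 2312, 2487, 2904 and 2210.2 in HET_late. All 4 HET_early tumours lay below all 6 WT_early tumours, and the HET_late and WT_late tumours overlapped. The share of all genes separated in this way was not counted. The slope of Gnl3 was 0.58 ± 0.07 (SE, adjusted p = 0.000212), 0.55 ± 0.09 without HET_early_2 (adjusted p = 0.0125) and 0.60 ± 0.09 in the wild type alone (adjusted p = 0.0413). Npm1 encodes nucleophosmin, the most abundant of the 35 per kilobase, and has processed copies elsewhere in the genome, so its values are uncertain as far as reads shared with them were counted. The WT_early tumours held 17865 to 30439 normalised reads of Npm1 (median 25153), and the WT_late tumours 22180, 17554, 27285, 32052 and 25851. Values of Npm1 were 27339, 3827, 25055 and 23287 in HET_early and 23416, 42227, 21882 and 21366 in HET_late. HET_late_2 was the highest and HET_early_2 the lowest, and all others lay between 17554 and 32052. The slope of Npm1 was 0.59 ± 0.13 (SE, adjusted p = 0.00557), and 0.25 ± 0.12 without HET_early_2 (adjusted p = 0.264). Without HET_early_2 its r with Myc was 0.41 (permutation p = 0.0894, adjusted p = 0.257) and its rho 0.61 (p = 0.00851, adjusted p = 0.0925).

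Pes1, Bop1 and Wdr12 form the PeBoW complex of large subunit assembly. Pes1 ran from 1666 to 2684 normalised reads in WT_early (median 2008) and stood at 1979.6, 2361, 2304, 2890.2 and 2316 in WT_late. It was at 2297, 755, 2531 and 2004 in HET_early and at 1758, 2314, 2029 and 1933 in HET_late. WT_late_2, low in Myc, was above the median, and the groups overlapped. The slope of Pes1 was 0.34 ± 0.09 (SE, adjusted p = 0.0124), and 0.13 ± 0.09 without HET_early_2 (adjusted p = 0.44). In WT_early Bop1 lay between 1557 and 2299.8 normalised reads (median 1853), and in WT_late at 2170.4, 1362, 1806, 2154 and 2546. The HET_early tumours had 1432, 719, 1834 and 1426, and the HET_late tumours 2302, 1959, 1837 and 1528. WT_late_5 was the highest and HET_early_2 the lowest. The slope of Bop1 was 0.35 ± 0.06 (SE, adjusted p = 0.00206), and 0.29 ± 0.08 without HET_early_2 (adjusted p = 0.0697). Wdr12 had a slope of 0.61.

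Wdr74, a large subunit assembly factor, was the flattest of the 35 and had the lowest level. Wdr74 ran from 13.4 to 36.7 normalised reads in WT_early (median 28.4) and stood at 33.2, 32.6, 33.7, 45.9 and 24.7 in WT_late. It was at 16.8, 12.0, 23.7 and 21.9 in HET_early and at 22.6, 90.7, 22.8 and 40.7 in HET_late. HET_late_2 was the highest and the 4 groups overlapped. The slope of Wdr74 was 0.10 ± 0.19 (SE, adjusted p = 0.762), and -0.05 ± 0.25 without HET_early_2 (adjusted p = 0.944). Nop16 encodes a nucleolar protein of the large subunit precursor. Normalised reads of Nop16 were 784 to 1703 in WT_early (median 1177) and 1260.4, 1069, 1296, 1779.8 and 1439 in WT_late. The level was 1099, 309.7, 1122 and 1088 in HET_early and 1125, 2289, 1272 and 1180.4 in HET_late. HET_late_2 was the highest here too, and WT_early_3, with the most Myc, was the second lowest. Its slope was 0.36 ± 0.12 (SE, adjusted p = 0.0452), and 0.10 ± 0.14 without HET_early_2 (adjusted p = 0.734).

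The other members of large subunit assembly had slopes of 0.48 (Nop2, a methyltransferase of the large subunit RNA), 0.48 (Ppan), 0.39 (Ddx18, an RNA helicase) and 0.29 (Gnl2, a nucleolar GTPase). Pprc1 is a transcriptional coactivator of nuclear genes for mitochondria and not itself an assembly factor. Pprc1 ran from 1289 to 2357 normalised reads in WT_early (median 1548) and stood at 1199.6, 784, 1533, 1579 and 1718 in WT_late. It was at 1447, 1069, 1191 and 1648 in HET_early and at 1194, 769, 1174 and 822 in HET_late. The 4 tumours lowest in Pprc1 were the 4 lowest in Myc, and WT_early_2 was the highest. Its slope was 0.30 ± 0.08 (SE, adjusted p = 0.0123), and 0.41 ± 0.09 without HET_early_2 (adjusted p = 0.0392).

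MYC binds DNA most tightly at the E-box CACGTG, so the promoters of the members were searched for these letters. RefSeq promoters (GRCm38.p6, 250 bases before to 50 after the start) were found for 29 of the 35 genes, and CACGTG, which reads the same on both strands, was in 5 of them (17.2%), against 8.09% of 27025 genes. The median GC content was 57.0% in the promoters of the members and 52.7% in all promoters, and its part in the share with the motif was not tested. The median slope on Myc was 0.53 for the 5 genes with the motif and 0.51 for the 24 without. A match is a description of the letters and not a binding site. The 5 matches are shown with up to 12 bases on each side, on the strand of the gene and with CACGTG in capitals, because these are the members whose promoter holds the motif.
Pes1, chr11:3963965-3963994, plus strand: ccctaggcagggCACGTGcgggaggaagta
Wdr43, chr17:71616220-71616249, plus strand: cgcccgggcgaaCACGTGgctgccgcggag
Utp20, chr10:88826765-88826789, minus strand: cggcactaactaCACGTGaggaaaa
Mybbp1a, chr11:72441355-72441376, plus strand: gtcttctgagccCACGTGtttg
Nop2, chr6:125131811-125131840, plus strand: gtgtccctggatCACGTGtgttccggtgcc
The motif began 3 bases after the start in Pes1, 18 in Wdr43, 38 in Utp20 and 41 in Mybbp1a, and at position -60 in Nop2. The slopes of these 5 genes ran from 0.34 (Pes1) to 0.64 (Wdr43).

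For the lists that follow, the shares of all genes that rose with Myc were 8.63% with all tumours and 0.959% without HET_early_2. For the abundant genes they were 28.7% and 3.91%. Among a list of 110 other ribosome biogenesis genes, 86 rose with Myc with all tumours (median slope 0.39) and 19 without HET_early_2 (median 0.24). Of 30 proliferation genes 20 rose with Myc with all tumours (median slope 0.46), and without HET_early_2 none was called by limma (2 at an unadjusted p under 0.05, median slope 0.08). Of 15 pan-B markers 4 rose with all tumours and none without HET_early_2. Of the 70 cytosolic ribosomal protein genes, whose products these factors assemble, 1 rose with Myc with all tumours (median slope 0.21). Without HET_early_2 none of the 70 was called by limma (0 at an unadjusted p under 0.05, median slope -0.03). That the slopes of these lists differ from those of the 35 was not tested. In HET_late_2, which had low Myc, the mean of the ribosomal protein genes was 1.57 log2 units above their mean over tumours, and that of the 35 genes 0.07 above.

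**Figure D4:**
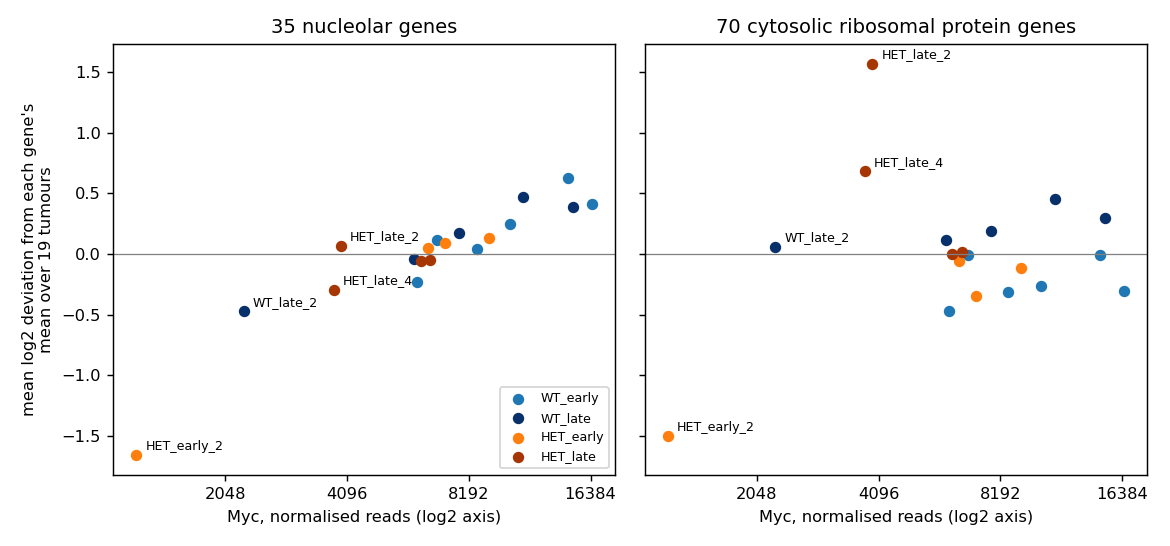
Mean log2 deviation from each gene's mean over the 19 tumours (vertical axes), for the 35 nucleolar genes (left) and the 70 cytosolic ribosomal protein genes (right), against normalised reads of Myc (horizontal axes, log2 scale), 1 point per tumour. The nucleolar mean runs from -1.66 in HET_early_2 to 0.63 in WT_early_2 and the ribosomal protein mean is highest in HET_late_2 (1.57).

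No difference between genotypes passed the limma test for any of the 35 genes. Bptf itself, whose levels did not overlap between genotypes, was not called either, at -0.92 ± 0.19 averaged over onset (SE, adjusted p = 0.493). Averaged over onset, all 35 were lower in Bptf+/Δ tumours, with a median difference of -0.35 on the log2 scale beside 0.06 over all genes. Over all genes 0% passed, and 6 of the 35 were lower at an unadjusted p under 0.05, beside 4.81% of all genes. On recovered reads edgeR and DESeq2 also called none of the 35, beside 0% and 0.13% of all genes. Without HET_early_2 the median difference was -0.12, with 30 lower and 5 higher, and 2 genes (Mybbp1a and Tcof1) were lower at an unadjusted p under 0.05, beside 2.79% of all genes. With the marker score for T cells, macrophages, stroma and endothelium as a covariate the direction turned, to a median of 0.08 with 14 lower. That score was far higher in HET_early_2 (1.60) than in any other library (-0.88 to 0.51), and this fit was not run without HET_early_2. The smallest p was that of Utp20, whose values are above, at -0.63 ± 0.25 (SE, adjusted p = 0.493), and Utp20 was at -0.45 ± 0.22 without HET_early_2 (adjusted p = 0.825). Myc itself was at -0.77 ± 0.38 (SE, adjusted p = 0.493), so both were lower in the heterozygotes, and the part of Myc in the difference was not tested.

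In early tumours all 35 genes were lower in heterozygotes, with a median of -0.58. None of the 35 and 0% of all genes were called, and 5 of the 35 were lower at an unadjusted p under 0.05, beside 4.12% of all genes. Without HET_early_2 the median was -0.12 and 9 of the 35 were higher. Gnl3, the member with the smallest p in early tumours, differed by -0.98 ± 0.33 (SE, adjusted p = 0.402), and by -0.58 ± 0.29 without HET_early_2 (adjusted p = 1). EdgeR and DESeq2 called none of the 35 in early tumours, beside 0% and 2.05% of all genes.

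In late tumours 26 genes were lower and 9 higher in heterozygotes, with a median of -0.15. None of the 35 and 0% of all genes were called, and none of the 35 had an unadjusted p under 0.05, beside 6.13% of all genes. Leaving out HET_early_2, an early tumour, kept these differences and changed the error estimate. Then 4 of the 35 (Heatr1, Mybbp1a, Tcof1 and Utp20) were lower at an unadjusted p under 0.05, beside 5.15% of all genes. Utp20 had the smallest p in late tumours as well, at -0.74 ± 0.36 (SE, adjusted p = 0.796), and its groups overlapped in both onset classes. Tcof1 had the largest late difference, at -0.79 ± 0.38 (SE, limma adjusted p = 0.796, and 0.516 without HET_early_2). Its late groups did not overlap, at 1628 to 2030 normalised reads in HET_late and 2080 to 5002 in WT_late. Tcof1 was picked here for the size of its difference. The share of all genes whose late groups do not overlap was not counted. Macrophage marker sums ran from 4850.5 to 28660 in HET_late and from 5944 to 13547 in WT_late, and their part in the late difference was not tested. EdgeR and DESeq2 called none of the 35 in late tumours, beside 0% and 0.161% of all genes. The authors' deposited table likewise gave 0 of the 35 as changed between genotypes, beside 0.338% of all genes with both onset classes together, 2.09% in early and 0.109% in late tumours.

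No difference between late and early tumours passed the limma test for any of the 35 genes either. Averaged over genotype, 25 were higher and 10 lower in late tumours, with a median of 0.09, beside 0.437% of all genes called in either direction. That median was -0.06 with total count scaling and -0.13 without HET_early_2. At an unadjusted p under 0.05, 2 were higher and 1 lower, beside 8.8% and 10.2% of all genes, and without HET_early_2 6 were lower, beside 11.5% of all genes. EdgeR and DESeq2 called none of the 35 here, beside 2.7% and 9.42% of all genes. Pprc1, the member with the smallest p, was at -0.39 ± 0.17 in late tumours (SE, adjusted p = 0.22), and at -0.44 ± 0.17 without HET_early_2 (adjusted p = 0.148). All 70 ribosomal protein genes were higher in late tumours, with a median of 0.77 (0.59 without HET_early_2). Of these 70, 2 passed the limma test, 10 passed in edgeR, 68 in DESeq2 and 0 with total count scaling. That they differ from the 35 was not tested.

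Within the wild type the median onset difference was -0.10, with 9 genes higher and 26 lower. None of the 35 and 0% of all genes were called, and none of the 35 had an unadjusted p under 0.05, beside 4.85% of all genes. Pprc1 had the smallest p in the wild type (-0.34 ± 0.22, SE, adjusted p = 0.961). Within the heterozygotes 28 genes were higher in late tumours, with a median of 0.26. None of the 35 and 0% of all genes were called, and 3 were higher at an unadjusted p under 0.05, beside 8.42% of all genes. Without HET_early_2 the direction turned, to a median of -0.18 with 4 genes lower at an unadjusted p under 0.05, beside 10.3% of all genes. Nop16 had the smallest p in heterozygotes, at 0.80 ± 0.36 (SE, adjusted p = 0.226), and was at 0.35 ± 0.27 without HET_early_2 (adjusted p = 0.503).

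For the interaction of genotype and onset, 0 of the 35 and 0% of all genes were called by limma, and none of the 35 had an unadjusted p under 0.05, beside 6.94% of all genes. The median interaction was 0.45, and -0.04 without HET_early_2. Nop56 had the smallest p, at 1.0 ± 0.48 (SE, adjusted p = 0.719), and was at 0.50 ± 0.31 without HET_early_2 (adjusted p = 0.799). EdgeR called none of the 35 in the wild type, the heterozygotes or the interaction, beside 0% of all genes in each. DESeq2 also called none, beside 0.607%, 8.8% and 0.482% of all genes. The authors' deposited table gave 0 of the 35 as changed with onset in either genotype, beside 1.94% of all genes in the wild type and 4.32% in the heterozygotes.

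**Figure D5:**
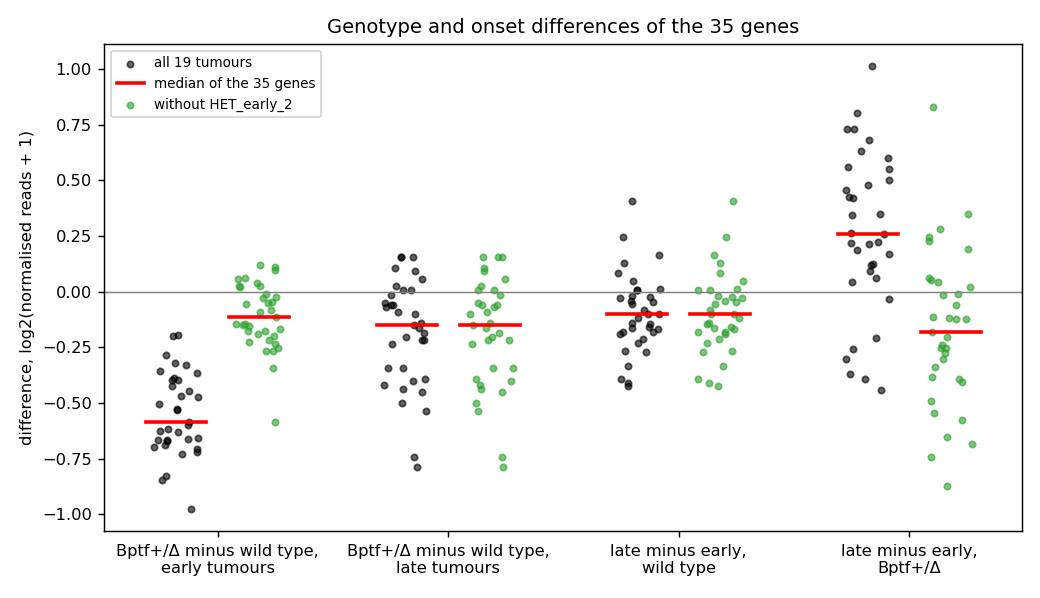
Difference of each of the 35 genes (points) between genotypes in early and in late tumours and between onset classes in each genotype, on the log2(normalised reads + 1) scale, for all 19 tumours (black) and without HET_early_2 (green), with the median of the 35 as a red line. In early tumours the median is -0.58 with all tumours and -0.12 without HET_early_2, and in heterozygotes the onset median turns from 0.26 to -0.18.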

How the data were processed

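Polyadenylated RNA of 19 lymphomas was sequenced on a Genome Analyzer IIx, per the labels' protocols, after 8 or 10 cycles of amplification depending on the protocol version. No label ties a library to a version, so batches could not be compared. The submitters' processing notes list FastQC 0.11.5, TopHat2 2.1.1 and Cufflinks 2.2.1, besides Cuffnorm and Cuffdiff, and the builds GRCm38 and mm10. Not given in the sources used here are the program behind the table, its strand setting and its annotation. The signal in the deposited table is a read count per gene that the authors scaled by a single factor for each library. Every value (100%) was, within 0.01 reads, a whole number of reads times that factor, which gave back the counts. The authors' deposited table also gives log2 fold changes and adjusted p-values, used as they stand.

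Signals were put on a log2(value + 1) scale, on which changes of low genes are understated, and 19927 genes with at least 1 normalised read in at least 4 libraries were kept. Limma 3.58.1 in R 4.3.3 was run with its trend option on the 4 groups together, adding log2 Myc for slopes (19926 genes, without Myc). Calls were made at a two-sided Benjamini-Hochberg adjusted p under 0.05 over all genes. Correlations used 100000 two-sided resamples, or every order for 8 or fewer tumours. Alternatives were edgeR 4.0.16 and DESeq2 1.42.0 on recovered reads, total count, TMM and quantile scaling, a pseudocount of 0.1, no filter, array weights, log2 weeks of onset, the marker score of non-tumour cells as a covariate, and the removal of libraries. The fits were tested on simulated counts. Depth was 8297856 to 12497732 reads per library, and counting error is only a lower limit of the error since amplified reads carried no molecular identifiers. No library repeated another (lowest chi-square per gene 17.4 over 171 pairs).

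The 35 members and the gene lists were chosen with earlier results of these data known. Values by tumour are given for examples of each role, for the 2 steepest and 2 flattest slopes on Myc, and for the smallest p of each genotype and onset comparison. No list was tested as a set. Python 3.11.15, NumPy 2.4.6, pandas 2.3.3, SciPy 1.17.1 and Matplotlib 3.10.9 were used.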

Additional observations from a re-analysis of the deposited data

Results flagged for a closer look

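Single tumours stood far from the rest of their group in 19 places, over 140 sets of values (35 genes in 4 groups). The nominal rate of such flags is about 5% of sets. Since the genes moved together, the sets are not independent, and the 19 was not tested against that rate. The share flagged over all genes is not given. HET_early_2 was the tumour in 12 of the 19 places. It was far below the other HET_early tumours for Nop58 (711 normalised reads), Dkc1 (380.2), Gnl3 (792), Wdr43 (630.1), Wdr75 (452), Mybbp1a (1869), Nolc1 (959.7), Rrp1b (299), Nop16 (309.7), Nob1 (381), Noc2l (755) and Ddx21 (1640.3). HET_late_2 was far above the other HET_late tumours for Npm1 (42227), Fbl (9800), Nop16 (2289) and Nob1 (1434.5). Within HET_late, Tcof1 was high in HET_late_1 (2029.8) and Noc2l low in HET_late_4 (1801). Within WT_early, Heatr1 was high in WT_early_2 (3765).

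The slope of Dkc1 on Myc differed between genotypes by 0.60 log2 units per log2 unit of Myc, steeper in heterozygotes (adjusted p = 0.0387, limma). Without HET_early_2 that difference was -0.25.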

How the results depend on the processing

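No paired analysis was possible because the replicate numbers only name libraries in accession order. No genotype or onset comparison called any of the 35 genes under any alternative run. For the slope on Myc, the count of genes called (33 with all tumours) was 14 without HET_early_2, 9 without the 3 libraries led by another transcript, 8 in the wild type alone, 2 with the covariate for non-tumour cells and 0 in the heterozygotes without HET_early_2. It ran from 14 to 33 over the libraries left out in turn and from 23 to 34 under the other scalings, weights and tools. The median slope was then 0.33, 0.32, 0.35, 0.43 and 0.18, with 0.39 under array weights, 0.64 in heterozygotes alone, and 0.33 to 0.58 with 1 library left out. By Pearson's r the count was 25 without HET_early_2, 19 without the 2 tumours farthest in Myc, 8 in the wild type, 0 in the heterozygotes and 0 in either genotype without its farthest pair. The cause of these shifts was not tested, other than that leaving out libraries leaves fewer samples. Fitting only the heterozygotes without HET_early_2 was chosen after seeing the data.

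The median genotype difference averaged over onset was 0.079 with the covariate, -0.10 without the 3 libraries and -0.45 to -0.12 with 1 library left out. In early tumours it was -0.15 with array weights, -0.033 with the covariate, -0.14 without the 3 libraries and -0.79 to -0.12 with 1 left out, and in late tumours -0.23 to -0.04. The onset median was -0.0098 with log2 weeks of onset and -0.13 to 0.18 with 1 library left out, and in the wild type -0.21 to 0.05. In heterozygotes it was -0.15 with array weights, -0.14 without the 3 libraries and -0.18 to 0.47 with 1 left out. The interaction was -0.11 with array weights and -0.037 to 0.63 with 1 left out. Total count scaling moved the median of all genes from -0.08 to -0.20 for onset averaged over genotype, and from 0.02 to -0.10 for genotype in late tumours, where that of the 35 was -0.30. Quantile normalisation moved it from 0.09 to -0.09 for genotype in early tumours, where that of the 35 was -0.67.

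For the genotype difference of the slope the count was 0 with array weights, the covariate or without the 3 libraries, 4 with quantile normalisation, 4 with total count scaling, and 0 to 7 with 1 library left out (0 without HET_early_1, HET_early_2, HET_early_4, WT_early_1, WT_early_3, WT_early_4, WT_early_6, WT_late_2 or WT_late_5, 2 without HET_late_1 and 7 without HET_late_2). Of all genes, 3.87% were called steeper in heterozygotes with quantile normalisation, 4.17% with total count scaling, 2.42% without HET_late_1 and 3.36% without HET_late_2. Its median was -0.40 without the 3 libraries and -0.25 to 0.28 with 1 left out. The slope difference of Dkc1 ran from -0.25 (without HET_early_2) to 0.67 with 1 library left out and turned to -0.19 without the 3 libraries. In heterozygotes without HET_early_2 the slope turned negative for Ncl (-0.18), Npm1 (-0.42), Nop56 (-0.053), Fbl (-0.39), Pes1 (-0.10), Wdr43 (-0.041), Wdr74 (-1.29), Rrp9 (-0.19), Rrp12 (-0.0036), Nop16 (-0.45), Nob1 (-0.24) and Ppan (-0.051). Wdr74 was also at -0.025 without the 3 libraries, and ran from -0.046 (without HET_early_2) to 0.16 with 1 library left out.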

Other observations

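The slopes on Myc by role, with and without HET_early_2, were as follows, with no test between roles. The median slope of the 7 RNA polymerase I and ribosomal DNA transcription genes went from 0.59 to 0.51, that of the 9 small subunit processing genes from 0.45 to 0.33, that of the 5 snoRNP protein genes from 0.53 to 0.30 and that of the 13 large subunit assembly genes from 0.48 to 0.29. In the wild type alone these medians were 0.48, 0.32, 0.35 and 0.32. Polr1a, Utp20, Rrp12, Gnl2 and Pprc1 had a slope without HET_early_2 at or above that with all tumours.

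Bop1 lies on chromosome 15, as does Myc. Over 424 other genes of that chromosome, the median deviation from each gene's mean, relative to all chromosomes, was highest in WT_late_5 (0.51 log2 units), WT_late_1 (0.37), WT_early_5 (0.37) and HET_late_1 (0.27), and at most 0.08 in the other tumours. Bop1 was at 2546, 2170.4, 1912 and 2302.5 normalised reads in these 4 tumours, and its median over the 19 was 1834. In the other tumours Bop1 ran from 719 (HET_early_2) to 2299.8 (WT_early_2, chromosome at -0.18), so the levels overlapped. Myc was at 14847, 6006, 6099 and 6567 in the same 4 tumours, with reads of the transgene not told apart. Whether copies of the chromosome differed was not tested.

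In the 7 heterozygous tumours without HET_early_2, the slope of the 70 ribosomal protein genes on Myc was negative for all 70, with a median of -1.17. The slope of the 35 nucleolar genes there had a median of 0.18. This subset was chosen after seeing the data. None of the slopes of either list was called by limma (26 of the 70 and 0 of the 35 were negative at an unadjusted p under 0.05). No share of all genes is given beside these counts, so they cannot be read as particular to either list. In the wild type alone the median slopes were 0.10 and 0.35. HET_late_4 and HET_late_2 were the lowest in Myc of the 7 heterozygous tumours. Their mean ribosomal protein deviations were 0.68 and 1.57 log2 units, and those of the other tumours of the 7 lay between -0.35 and 0.02. The slope of the ribosomal protein genes without HET_late_4 and HET_late_2 was not tested.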
